A study of Homo sapiens with 6 samples.

Results

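The genes described here are 10 regulators and readouts of epithelial-mesenchymal transition (EMT), chosen by name from the 58676 genes of the deposited table. They are the EMT transcription factors SNAI1, SNAI2, ZEB1, ZEB2 and TWIST1, the classical cadherins CDH1, CDH2 and CDH3 (E-, N- and P-cadherin), and the epithelial splicing regulators ESRP1 and ESRP2. All 10 were found in the table.

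RNA sequencing compared 3 NS control samples with 3 BCL9 KD samples of DCIS.COM, a human breast cell line that forms lesions resembling ductal carcinoma in situ when it is grown in mice. NS control cells carried the PLKO.1 lentiviral vector with a non-silencing insert, and BCL9 KD cells carried PLKO.1 with a single short hairpin RNA against BCL9, a coactivator of beta-catenin. Both groups were transduced, kept in puromycin and grown in the same serum-containing medium without a further treatment, and each sample was its own flask, so the replicates measured the spread between cultures of 1 cell line with 1 hairpin. The comparison asked how expression in these cells differed when BCL9 was reduced.

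In EMT, epithelial cells loosen their junctions and take on migratory properties. The transcription factors of the SNAI, ZEB and TWIST families repress epithelial genes, of which CDH1 is the best known, by binding E-box sequences in their regulatory regions. A fall of E-cadherin with a gain of N-cadherin is the classical readout of the transition, P-cadherin marks basal and myoepithelial cells of the breast, and the ESRP proteins hold many transcripts in their epithelial splice forms. The miR-200 family and miR-205 restrain ZEB1 and ZEB2, and beta-catenin, the partner of BCL9, also binds the tail of classical cadherins at the membrane.

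The microRNAs that target the ZEB transcripts are shown because the ZEB genes were almost unread in these cells while the deposited table holds host genes for some of these microRNAs. The mature sequences are from RefSeq (GRCh38.p14), with the seed, bases 2 to 8, in capitals. MIR200C and MIR141 lie on chromosome 12 and the others on chromosome 1.
hsa-miR-200b-3p: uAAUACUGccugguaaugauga
hsa-miR-200c-3p: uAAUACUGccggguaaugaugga
hsa-miR-429: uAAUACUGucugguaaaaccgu
hsa-miR-200a-3p: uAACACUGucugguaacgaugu
hsa-miR-141-3p: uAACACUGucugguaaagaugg
hsa-miR-205-5p: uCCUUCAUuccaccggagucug
The first 3 share the seed AAUACUG, the next pair share AACACUG, and miR-205-5p has the seed CCUUCAU. The mature microRNAs themselves were not measured by these libraries.

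Depth was between 15222452 and 26949026 counted reads per sample. Expression is given as FPKM, reads scaled to the length of the gene and to the depth of the sample, so that levels of different genes can be compared. BCL9, the targeted gene, was at 6.25, 6.24 and 5.34 FPKM in the NS control samples and at 2.86, 2.78 and 2.59 in the BCL9 KD samples. Every BCL9 KD sample was below every NS control sample, with a log2 fold change of -0.99 (SE 0.0933, limma adjusted p = 0.00773). Without NS control replicate 2, BCL9 KD replicate 2 or BCL9 KD replicate 3, the adjusted p of BCL9 in limma was 0.0636, 0.0600 and 0.0700. Of the basal keratins, KRT17 and KRT5 had means of 566 and 406 FPKM over the 6 samples, whereas KRT14 was at 36.4 and KRT6A at 1.81. The 6 basal markers summed to 1400 to 1630 FPKM in NS control and 1450 to 1470 in BCL9 KD samples. Luminal markers summed to 435 to 552 and 396 to 414 FPKM, with KRT8 highest. Fibroblast markers summed to 0.548 to 0.624 FPKM in NS control and 0.652 to 0.749 in BCL9 KD samples, with COL1A1 highest and COL3A1 at 0 in all samples. Immune markers summed to at most 0.0583 FPKM, with CD68 highest. Endothelial markers summed to 1.80 to 2.42 FPKM in NS control and 3.22 to 4.06 in BCL9 KD samples, almost all from PECAM1, which rose (limma adjusted p = 0.0477), and melanocyte and neural markers, mostly NCAM1, to 3.95 to 4.43 and 5.08 to 5.77. The part of these markers in the results was not tested, and in bulk samples fewer cells of a type and less RNA per cell cannot be told apart.

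The cells had a high level of E- and P-cadherin and of ESRP1, an intermediate level of SNAI2 and ESRP2, a lower level of TWIST1 and CDH2, and only traces of SNAI1, ZEB1 and ZEB2. Among protein-coding genes ranked by mean FPKM, CDH3 stood at percentile 96.8, CDH1 at 96.2 and ESRP1 at 95.03. SNAI2 stood at 85.6 and ESRP2 at 82.8, whereas TWIST1 and CDH2 were nearer the middle at 68.9 and 66.8. SNAI1, ZEB1 and ZEB2 stood at 36.6, 32.6 and 21.8.

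In NS control samples the order of the levels was CDH3, CDH1, ESRP1, ESRP2, SNAI2, CDH2, TWIST1, SNAI1, ZEB1 and ZEB2. The samples of ESRP2 and SNAI2 overlapped there, as did those of CDH2 and TWIST1 and those of SNAI1 and ZEB1. In BCL9 KD samples SNAI2 stood above ESRP2 and TWIST1 above CDH2, in both cases without overlap, and SNAI1 and ZEB1 still overlapped. The plot of levels by sample shows this order.

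**Figure D1:**
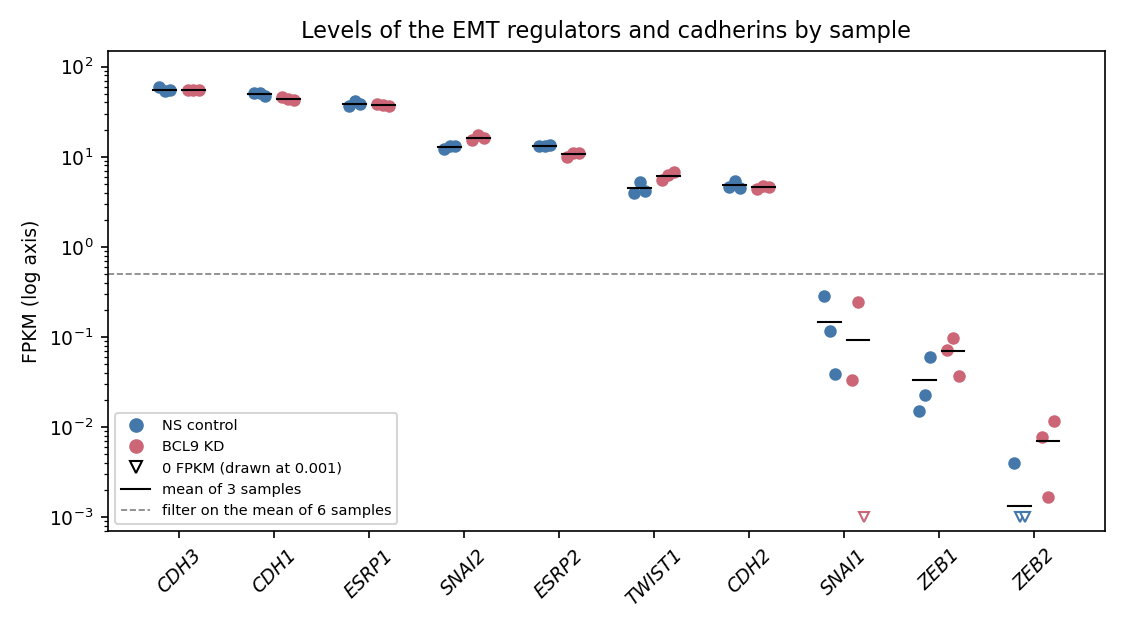
FPKM on a log axis for each of the 10 genes in the 3 NS control (blue) and 3 BCL9 KD (red) samples, with group means as bars and the filter at a mean of 0.5 FPKM as a dashed line. CDH3, CDH1 and ESRP1 lie highest, from 36.95 to 58.7 FPKM, and SNAI1, ZEB1 and ZEB2 lie below 0.3 FPKM in every sample.

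Of the 10 genes, 7 had a mean of at least 0.5 FPKM and were tested among 13745 genes with limma on log2(FPKM + 0.5), and 3 (SNAI1, ZEB1 and ZEB2) were too low to test. None of the 7 was called at an adjusted p under 0.05, against 5.87% of all genes tested (2.96% higher and 2.91% lower in BCL9 KD). At an unadjusted p under 0.05 there were 4 of the 7 (SNAI2, TWIST1, CDH1 and ESRP2), against 27.5% of all genes tested. In the same 4 genes the groups did not overlap, SNAI2 and TWIST1 being higher in BCL9 KD and CDH1 and ESRP2 lower, where 34.2% of all genes tested had groups apart. On the reads recovered from the FPKM, limma's voom called 1 of the 7, ESRP2, against 10.2% of all genes, and after a correction for transcript GC content limma called the same gene, against 11.4%. The median log2 fold change of all genes tested was 0.04.

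Among the 5 transcription factors of the 10 genes, SNAI2 and TWIST1 were the ones expressed above traces. Both had higher values in BCL9 KD samples without passing the test. SNAI2 encodes Slug, a zinc-finger repressor that is also normally present in basal cells of the mammary epithelium. Its gene (ENSG00000019549) lies on the minus strand of chromosome 8, from 48917690 to 48921740 in hg38, the build of the submitters' processing notes. SNAI2 was at 12.1, 13.1 and 13.2 FPKM in NS control samples, a mean of 12.8 ± 0.626 (SD, n = 3). In BCL9 KD samples it was at 15.2, 17.5 and 16.0 FPKM, a mean of 16.2 ± 1.14 (SD, n = 3). Every BCL9 KD sample was above every NS control sample. The difference in means was 26.9% of the NS control level. The log2 fold change was 0.33 (SE 0.0796, 95% interval 0.14 to 0.52, limma adjusted p = 0.0566). Behind these values were 460 to 626 reads per NS control sample and 571 to 1075 per BCL9 KD sample. After a correction for transcript GC content, the SNAI2 value was 0.21 on the log2 scale, with an adjusted p of 0.166 in limma.

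TWIST1, a basic helix-loop-helix factor that drives mesenchymal programmes in the embryo, was at a level near that of CDH2. Its gene (ENSG00000122691) lies on the minus strand of chromosome 7, from 19020991 to 19117672. The 3 NS control samples had 3.94, 5.25 and 4.17 FPKM of TWIST1, and the 3 BCL9 KD samples had 5.45, 6.26 and 6.84. The lowest BCL9 KD sample was only slightly above the highest NS control sample. Group means of TWIST1 were 4.45 ± 0.700 and 6.19 ± 0.698 FPKM (SD, n = 3 each). This gave a log2 fold change of 0.44 (SE 0.129, 95% interval 0.13 to 0.74, limma adjusted p = 0.0884), the largest of the 7 genes tested. TWIST1 had 129 to 343 reads per sample, and an antisense gene within its bounds had at most 1 read in any sample. SNAI2 and TWIST1 were thus both present in NS control samples, and their differences of 26.9% and 38.9% did not pass the threshold.

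SNAI1, which encodes Snail, the close relative of Slug, had only a handful of reads. On chromosome 20 from 49982999 to 49988886 (ENSG00000124216, plus strand), it collected 11, 4 and 1 reads in the NS control samples and 1, 11 and 0 in the BCL9 KD samples. One sample of each group held most of the reads, and the groups overlapped. Summed over the group, 16 reads in NS control (95% Poisson interval 9.15 to 25.98) stood against 12 in BCL9 KD (6.20 to 20.96), which pooled to 0.163 and 0.118 FPKM. These intervals cover counting error only. A difference in SNAI1 was not detectable at this depth.

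ZEB1 and ZEB2 encode zinc-finger homeodomain repressors that are high in mesenchymal cells. ZEB1 (ENSG00000148516, chromosome 10, 31318495 to 31529814, plus strand) had 3, 4 and 8 reads in NS control and 11, 23 and 5 in BCL9 KD samples. The highest NS control sample lay above the lowest BCL9 KD sample, so the groups overlapped. Its summed reads were 15 (8.40 to 24.74) and 39 (27.73 to 53.31), or 0.0298 and 0.0748 FPKM pooled. The intervals of the sums did not overlap, but they leave out the spread between samples. The antisense gene ZEB1-AS1, which overlaps the start of ZEB1 on the opposite strand, had 18, 13 and 9 reads in NS control and 18, 43 and 20 in BCL9 KD samples, more than ZEB1 itself in each. Whether strand was used in counting is not given in the sources used here, and reads of the overlapping pair cannot be told apart without it. The BCL9 KD sample with the most ZEB1-AS1 reads, 43, was also the one with the most ZEB1 reads, 23.

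ZEB2 (ENSG00000169554, chromosome 2, 144384081 to 144524583, minus strand) was the lowest of all. It had 2, 0 and 0 reads in NS control and 3, 1 and 4 in BCL9 KD samples, and its antisense gene had none. The sums were 2 (0.24 to 7.22) and 8 (3.45 to 15.76), whose intervals overlap.

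RefSeq promoter windows, from 250 bases before to 50 after a start site, were matched for 3 of the 10 genes, with 7 windows for ZEB1, 1 for ZEB2 and 2 for CDH2. The search covered the E-box CANNTG, and CACCTG with its reverse complement CAGGTG, the form bound by the SNAI and ZEB proteins and a subset of the CANNTG matches, on both strands. CANNTG was found in 68.7% of all 35116 windows and CACCTG or CAGGTG in 20.6%. Of the ZEB1 windows, 2 held CACCTG or CAGGTG, whereas the windows of ZEB2 and CDH2 held neither. The upstream bases of the ZEB1 window with the most matches, 3 in its 300 bases, are shown with those matches that lie before the start in capitals (chr10:31318966-31319215, plus strand, GRCh38.p14).
ZEB1 upstream: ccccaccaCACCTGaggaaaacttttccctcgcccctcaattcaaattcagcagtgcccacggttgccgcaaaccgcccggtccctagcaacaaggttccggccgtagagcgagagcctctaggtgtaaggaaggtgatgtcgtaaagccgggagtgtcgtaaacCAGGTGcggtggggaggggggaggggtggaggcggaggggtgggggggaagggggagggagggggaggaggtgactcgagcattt
These matches are letters in a sequence, and the libraries carried no measurement of binding.

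The host genes of the microRNAs above were both higher in every BCL9 KD sample than in every NS control sample, without passing the test. MIR205HG, the host of miR-205, was at 29.6, 34.4 and 33.3 FPKM in NS control and 43.5, 40.0 and 40.4 in BCL9 KD samples (log2 fold change 0.35, SE 0.0801, limma adjusted p = 0.0527). MIR200CHG, whose bounds enclose MIR200C and MIR141, was at 0.377, 1.84 and 1.88 FPKM in NS control and 2.75, 4.98 and 3.28 in BCL9 KD samples (log2 fold change 1.26, SE 0.408, limma adjusted p = 0.106). The first NS control sample was far below the others for MIR200CHG. MIR205HG was called higher after the GC correction (limma adjusted p = 0.0212) and with voom on recovered reads (adjusted p = 0.0399). Neither host gene was called with a replicate block or in any fit that left out a single sample.

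E- and P-cadherin were the dominant cadherin transcripts, at similar levels. CDH1 (ENSG00000039068) and CDH3 (ENSG00000062038) are neighbours on the plus strand of chromosome 16, at 68737225 to 68835548 and 68636189 to 68722616, separated by 14608 bases. CDH1 was at 50.8, 51.6 and 46.9 FPKM in NS control and at 45.7, 44.05 and 43.1 in BCL9 KD samples. All 3 BCL9 KD samples lay below the NS control samples, though the nearest pair differed little. Mean CDH1 was 49.7 ± 2.52 and 44.3 ± 1.35 FPKM (SD, n = 3 each), a log2 fold change of -0.16 (SE 0.0677, 95% interval -0.32 to -0.0043, limma adjusted p = 0.173).

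CDH3 was at 58.7, 54.1 and 54.4 FPKM in NS control and at 55.3, 55.5 and 54.6 in BCL9 KD samples. The groups overlapped, with the BCL9 KD samples close to each other. The log2 fold change was -0.01 with a 95% interval of -0.16 to 0.14 (limma adjusted p = 0.902). It took the other sign after the GC correction, at 0.03, and without NS control replicate 1, at 0.02.

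CDH2, the cadherin of mesenchymal and neural cells, was far below both. Its gene (ENSG00000170558) lies on the minus strand of chromosome 18, from 27950966 to 28177446. CDH2 was at 4.67, 5.45 and 4.50 FPKM in NS control and at 4.40, 4.69 and 4.60 in BCL9 KD samples. These ranges overlapped, and the log2 fold change of -0.08 had a 95% interval of -0.30 to 0.14 (limma adjusted p = 0.587). It was -0.0062 without NS control replicate 2 and -0.13 without NS control replicate 3. The data therefore held no called shift from E- to N-cadherin in either direction.

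The balance of P- to E-cadherin was also compared within samples. The ratio of CDH3 to CDH1 FPKM was 1.16, 1.05 and 1.16 in NS control and 1.21, 1.26 and 1.27 in BCL9 KD samples. All BCL9 KD ratios were above all NS control ratios. On the log2 scale with 0.5 FPKM added, the mean ratio went from 0.16 ± 0.08 to 0.31 ± 0.04 (SD, n = 3 each), a difference of 0.15 (p = 0.1 in an exact two-sided permutation test, which cannot give less with 3 against 3). The ratio of CDH2 to CDH1 was 0.0920 to 0.106 in NS control and 0.0962 to 0.107 in BCL9 KD samples, with overlap, and its log2 difference was 0.083 (exact permutation p = 0.2). That difference was 0.041 without NS control replicate 1 and 0.13 without NS control replicate 2 or BCL9 KD replicate 1. Of the summed FPKM of the 3 cadherins, CDH1 made up 45.07% ± 1.16 in NS control and 42.58% ± 0.68 in BCL9 KD samples, CDH3 50.52% ± 1.58 and 53.03% ± 0.49, and CDH2 4.42% ± 0.43 and 4.39% ± 0.19 (SD, n = 3 each).

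**Figure D2:**
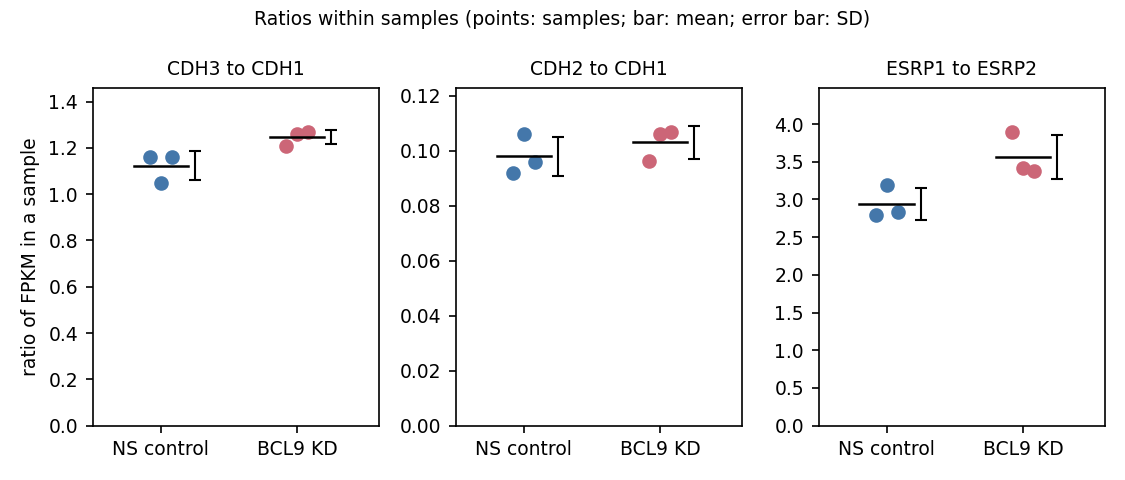
Ratio of FPKM within each sample for CDH3 to CDH1, CDH2 to CDH1 and ESRP1 to ESRP2 in NS control (blue) and BCL9 KD (red), with the mean as a bar and the SD as an error bar. The CDH3 to CDH1 and ESRP1 to ESRP2 ratios of the 3 BCL9 KD samples lie above those of all NS control samples, and those of CDH2 to CDH1 overlap.

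Of the epithelial splicing regulators, ESRP2 had the smallest adjusted p of the 7 genes tested, just above the threshold, and the groups of ESRP1 overlapped. Its gene (ENSG00000103067) is on the minus strand of chromosome 16, at 68229111 to 68238102, 398086 bases from CDH3. ESRP2 was at 13.2, 13.1 and 13.5 FPKM in NS control samples, a mean of 13.3 ± 0.213 (SD, n = 3). In BCL9 KD samples it was at 9.98, 10.9 and 10.9 FPKM, a mean of 10.6 ± 0.543 (SD, n = 3). The groups were well apart compared with the spread within them. The log2 fold change was -0.31 (SE 0.0695, 95% interval -0.48 to -0.15, limma adjusted p = 0.0501), with 954 to 1667 reads per sample. It was called with voom (adjusted p = 0.0405) and after the GC correction (limma adjusted p = 0.0455).

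ESRP2 shares 149 bases with the end of NFATC3, a calcium-regulated transcription factor gene on the opposite strand, and without strand the reads there cannot be told apart. NFATC3 fell from 3.96 ± 0.354 to 2.44 ± 0.303 FPKM (SD, n = 3 each; log2 fold change -0.60, limma adjusted p = 0.0362). SLC7A6, an amino acid transporter gene nearby, also fell, by 0.49 on the log2 scale (limma adjusted p = 0.0404). PLA2G15, which lies between SLC7A6 and ESRP2, was at -0.40 on the log2 scale and did not pass (limma adjusted p = 0.0853), and no other tested gene from there to CDH1 was called. The part of the shared bases in the ESRP2 value was not tested.

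ESRP1 (ENSG00000104413, chromosome 8, 94641074 to 94707466, plus strand) was at 36.97, 41.7 and 38.2 FPKM in NS control and at 38.9, 37.3 and 36.95 in BCL9 KD samples. The groups overlapped. Its log2 fold change was -0.05 with a 95% interval of -0.21 to 0.12 (limma adjusted p = 0.703), and its sign turned without NS control replicate 2, at 0.0042. ESRP1 was thus 2.80, 3.19 and 2.83 times the ESRP2 level in NS control and 3.90, 3.42 and 3.38 times in BCL9 KD samples. Every BCL9 KD ratio was above the NS control ratios, and the log2 difference of the ratios was 0.26 (exact two-sided permutation p = 0.1, again the lowest that can be reached).

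**Figure D3:**
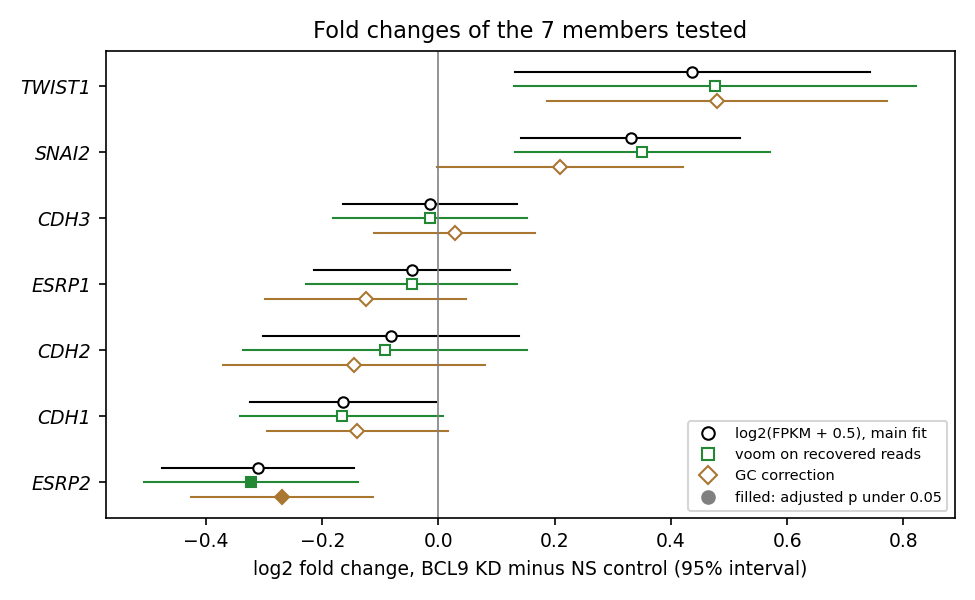
Log2 fold change, BCL9 KD minus NS control, with its 95% interval for the 7 genes tested, in the fit on log2(FPKM + 0.5) (circles), with voom on recovered reads (squares) and after the GC correction (diamonds). Filled symbols have an adjusted p under 0.05, which only ESRP2 reached, at -0.32 with voom and -0.27 after the GC correction.

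The genes whose pattern over the 6 samples was nearest to ESRP2, by Euclidean distance of centred log2 values among 11145 protein-coding genes, were NOLC1 (0.0898), IL17RB (0.0904) and NSUN2 (0.0914). Chosen in this way, these genes had fold changes near that of ESRP2 by construction. NOLC1, a nucleolar phosphoprotein, fell by 0.31 on the log2 scale (limma adjusted p = 0.0372). IL17RB, a cytokine receptor chain, and NSUN2, an RNA methyltransferase, had log2 fold changes of -0.30 and -0.29 and did not pass the test (limma adjusted p = 0.102 and 0.0571).

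Genes that work with the cadherins and splicing regulators were described by lists, of which the counts that rose or fell are to be read beside the 5.87% called, those at an unadjusted p under 0.05 beside 27.5%, those after the GC correction beside 11.4%, those with voom beside 10.2% and the medians beside 0.04 for all genes tested. In the cadherin-catenin complex, 10 of 12 genes were tested, none rose and 1 fell, with a median log2 fold change of -0.09. The gene that fell was VCL (vinculin, which links adhesions to actin), from 49.1 ± 2.94 to 31.2 ± 1.78 FPKM (SD, n = 3 each; log2 fold change -0.65, limma adjusted p = 0.0122). CTNNB1, which encodes beta-catenin, was the highest of the list at 270.0 ± 10.7 FPKM in NS control and 232 ± 13.7 in BCL9 KD samples (log2 fold change -0.22, limma adjusted p = 0.112), followed by CTNNA1 at 88.0 ± 8.27 and 85.0 ± 0.766 FPKM (log2 fold change -0.05, limma adjusted p = 0.741).

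Of 16 other cadherins, 4 were tested and 4 had no read in any sample (CDH6, CDH7, CDH9 and CDH22). CDH13, the cadherin held in the membrane by a lipid anchor, rose from 1.93 ± 0.0810 to 3.24 ± 0.108 FPKM (SD, n = 3 each; log2 fold change 0.62, limma adjusted p = 0.0187). CDH19, at 4.43, 7.63 and 10.9 FPKM in NS control and 14.8, 13.5 and 13.8 in BCL9 KD samples, was the highest of them, above CDH2 in every sample but NS control replicate 1. Its NS control samples were spread widely, all below the BCL9 KD samples, and it did not pass the test (log2 fold change 0.92, limma adjusted p = 0.0926). CDH19 was called higher after the GC correction, at a smaller 0.57 on the log2 scale (limma adjusted p = 0.0231), and with voom, at 0.99 (adjusted p = 0.0451). CDH11, a mesenchymal cadherin, was at 3.86 ± 0.256 and 3.49 ± 0.131 FPKM (limma adjusted p = 0.371). The median of the 4 was 0.37.

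Other EMT transcription factors included 14 tested of 18, of which 2 rose and none fell, with a median of 0.02. FOXQ1, a forkhead factor, rose from 0.989 ± 0.141 to 2.38 ± 0.277 FPKM (SD, n = 3 each; log2 fold change 0.95, limma adjusted p = 0.0181). ID1, which blocks basic helix-loop-helix factors and is a target of BMP signalling, rose from 25.7 ± 1.70 to 38.2 ± 3.04 FPKM (log2 fold change 0.56, limma adjusted p = 0.0236). SOX9 was the highest, at 133 ± 9.39 and 130.0 ± 2.96 FPKM (log2 fold change -0.03, limma adjusted p = 0.850). TWIST2, the relative of TWIST1, was at 4.15 ± 0.578 and 4.38 ± 0.559 FPKM (log2 fold change 0.07, limma adjusted p = 0.741). Of 12 transcription factors that maintain epithelial identity, 11 were tested and none was called by limma, with 3 at an unadjusted p under 0.05 (27.5% of all genes), and their median was 0.14. With voom, 1 was called, against 10.2% of all genes, and 1 after the GC correction, against 11.4%. The highest were EHF at 19.5 ± 4.51 and 23.8 ± 1.05 FPKM (limma adjusted p = 0.271) and TP63, a master factor of basal cells, at 14.6 ± 2.25 and 17.6 ± 0.624 FPKM (limma adjusted p = 0.180).

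Epithelial and mesenchymal markers moved in both directions. Of 18 epithelial markers tested among 20, 1 rose and 1 fell, with a median of -0.01. In either direction, 10 of the 18 were at an unadjusted p under 0.05, against 27.5% of all genes. The tight junction gene CLDN1 rose from 30.9 ± 2.31 to 43.0 ± 0.189 FPKM (SD, n = 3 each; log2 fold change 0.47, limma adjusted p = 0.0236), whereas OCLN, another tight junction gene, fell from 3.32 ± 0.360 to 2.05 ± 0.119 FPKM (log2 fold change -0.58, limma adjusted p = 0.0340). KRT8, a keratin of simple epithelia, was the highest, at 293 ± 36.4 and 244 ± 2.01 FPKM (limma adjusted p = 0.144). After the GC correction, which called 11.4% of all genes, 5 of these markers were called higher and 2 lower, and with voom, which called 10.2%, 4 were higher and 1 lower.

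Of 12 mesenchymal markers tested among 20, 3 rose and 4 fell, with a median of 0.04. In either direction, 8 of the 12 were at an unadjusted p under 0.05, against 27.5% of all genes. S100A4, a calcium-binding protein of motile cells, rose from 7.14 ± 0.678 to 16.0 ± 2.39 FPKM (SD, n = 3 each; log2 fold change 1.10, limma adjusted p = 0.0117). MMP2, a matrix metalloproteinase, rose from 9.16 ± 0.269 to 15.9 ± 0.640 FPKM (log2 fold change 0.76, limma adjusted p = 0.00753), and FN1 (fibronectin) rose by 0.56 on the log2 scale (limma adjusted p = 0.0313). TAGLN, an actin-binding protein of smooth muscle, fell from 0.928 ± 0.186 to 0.324 ± 0.0595 FPKM (log2 fold change -0.79, limma adjusted p = 0.0486). The other markers that fell were the receptor kinase AXL and the matrix proteins TNC and SPARC. SPARC was the highest of the list, at 174 ± 7.92 and 141 ± 2.5 FPKM (log2 fold change -0.30, limma adjusted p = 0.0466), and it did not pass after the GC correction (limma adjusted p = 0.0564). VIM (vimentin) was at 50.8 ± 2.91 and 55.1 ± 2.48 FPKM (log2 fold change 0.12, limma adjusted p = 0.328). After the GC correction 4 of these markers were called higher and 3 lower, and with voom 4 and 4, against 11.4% and 10.2% of all genes.

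Genes whose transcripts the ESRP proteins are known to splice were all tested, 12 of 12, and 1 rose and 1 fell, with a median of -0.13. FGFR2, the receptor whose epithelial exon depends on ESRP, fell from 5.17 ± 0.0803 to 3.96 ± 0.126 FPKM (SD, n = 3 each; log2 fold change -0.35, limma adjusted p = 0.0456). SLC37A2 rose from 2.49 ± 0.178 to 4.65 ± 0.340 FPKM (log2 fold change 0.79, limma adjusted p = 0.0124). The highest were CD44, at 98.6 ± 4.67 and 92.5 ± 4.07 FPKM, and CTNND1, the p120 catenin gene, at 42.8 ± 3.12 and 37.9 ± 1.2 FPKM, and neither passed the test. After the GC correction, 2 of these genes were called higher and 1 lower, and with voom 1 and 1, against 11.4% and 10.2% of all genes. These are levels of whole genes, and splice forms were not analysed here. Of 15 other splicing factors linked to EMT, 14 were tested and none was called by limma or voom, with 3 at an unadjusted p under 0.05 (27.5% of all genes) and a median of 0.11. After the GC correction, 1 was called lower, against 11.4% of all genes. The highest were HNRNPM, at 96.8 ± 4.11 and 82.5 ± 1.45 FPKM (limma adjusted p = 0.0773), and PTBP1, at 90.5 ± 6.33 and 80.6 ± 3.95 FPKM (limma adjusted p = 0.220).

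Among 12 inputs of TGF-beta signalling, a main inducer of EMT, 11 were tested, none rose and 1 fell, with a median of 0.02. TGFBR3, the coreceptor betaglycan, fell from 2.04 ± 0.472 to 0.807 ± 0.0519 FPKM (SD, n = 3 each; log2 fold change -0.94, limma adjusted p = 0.0319). The highest were TGFBR2, at 103 ± 6.78 and 89.7 ± 2.18 FPKM (limma adjusted p = 0.145), and SMAD3, at 25.1 ± 2.33 and 22.5 ± 0.881 FPKM (limma adjusted p = 0.277). With voom and after the GC correction, 2 of these inputs were called lower and none higher, against 10.2% and 11.4% of all genes. Of 8 genes that cleave cadherins or turn over Snail and beta-catenin, all were tested and none was called by limma or voom, with 1 at an unadjusted p under 0.05 (27.5% of all genes) and a median of -0.03. ADAM15 and GSK3B were the highest, at 49.0 ± 5.19 and 43.7 ± 1.27 FPKM and at 20.3 ± 2.21 and 20.6 ± 1.42 FPKM (limma adjusted p = 0.288 and 0.902).

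**Figure D4:**
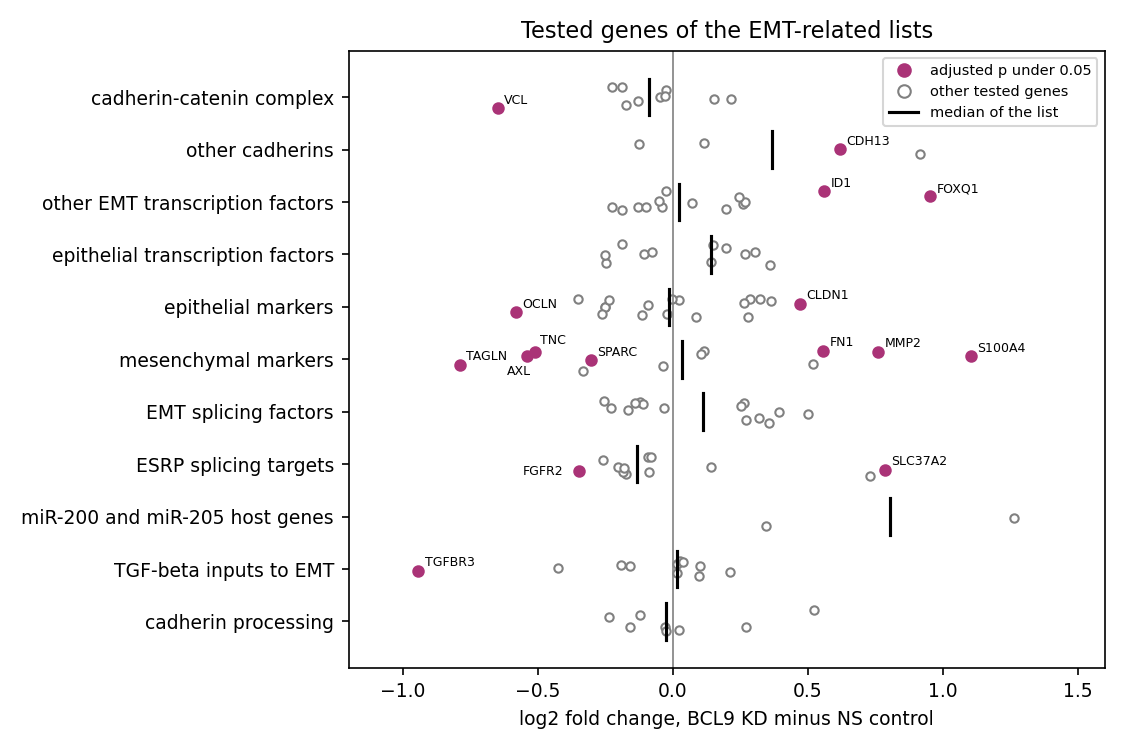
Log2 fold change, BCL9 KD minus NS control, of each tested gene of the lists around the 10 genes, with called genes in purple and named, other genes as open circles and the median of each list as a black bar. Called genes fall on both sides of 0 for epithelial markers, mesenchymal markers and ESRP targets, with 1 higher and 1 lower, 3 higher and 4 lower, and 1 higher and 1 lower.

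Calls over the whole table depended on single samples. Without NS control replicate 1 or BCL9 KD replicate 1 it held 721 and 736 called genes, near the 807 of all 6 samples. Without NS control replicate 2, BCL9 KD replicate 2 or BCL9 KD replicate 3, it held 12, 13 and 5, and without NS control replicate 3 it held 1712. In each of the lists above with a called gene, at least 1 of the 6 fits that leave out a single sample called none of its genes.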

How the data were processed

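RNA of 3 NS control and 3 BCL9 KD samples of DCIS.COM was sequenced from NEB Next Ultra libraries. Per the labels and the paper's methods, the authors aligned reads with STAR, counted reads per gene with HTSeq 0.6.1 and deposited FPKM, beside the gene length in bases; the build in the submitters' processing notes is hg38. The methods state that differential expression was tested on counts. Here the main test used the deposited FPKM on a log scale, with voom on recovered reads as an alternative. The product of FPKM and gene length, divided by the step that 1 read is worth in each sample, gave whole reads, within a tolerance of 0.1, in all 6 samples. At these depths, 15222452 to 26949026 reads, counting error is large for genes with few reads. No molecular identifiers that would mark PCR copies are described, so intervals cover counting error only.

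Samples were grouped by their labels, and none was left out. Genes with a mean of at least 0.5 FPKM over the 6 samples were tested with limma 3.58.1 (R 4.3.3) on log2(FPKM + 0.5) with a mean-variance trend, as the difference of BCL9 KD from NS control, with Benjamini-Hochberg adjustment over all 13745 genes and a threshold of 0.05. Fold changes are on that scale, which understates the change of low genes. Ratios were compared by two-sided exact permutation tests. GC content came from annotated transcripts of GRCh37 and was known for 98.8% of tested genes. Replicates of a group correlated at 0.964 to 0.987. Python 3.11.15, pandas 2.3.3, numpy 2.4.6, scipy 1.17.1 and matplotlib 3.10.9 were used. A check of the test on simulated data used planted changes larger than those of the tested EMT regulators and cadherins. It therefore does not cover changes of their size.

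The 10 genes and the lists were chosen with earlier results of these data known. All 175 genes of the lists were found, some under older symbols by gene identifier. Named with values were BCL9, the 10 genes, for each list the called genes (the 4 of largest change if more than 4) and the 2 of highest mean FPKM, for each cell type list the highest gene and any gene at 0 throughout, and the 3 protein-coding genes nearest to the gene of lowest p. NFATC3, SLC7A6, PLA2G15, ZEB1-AS1, TWIST2, KRT5, KRT14, KRT6A, AXL and TNC are outside this rule and were picked once their values had been seen. Some genes that meet the rule are not reported here. Alternatives were other added values, filters, scalings and priors, voom on recovered reads, protein-coding genes alone, a GC correction, a replicate block and leaving out each sample.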

Additional observations from a re-analysis of the deposited data

How the results depend on the processing

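No member gene was called by limma in the reported fit, and 1 (ESRP2) was called with 1 FPKM added, with quantile normalization, with voom on recovered reads and after the GC correction, and 2 (SNAI2 and ESRP2) with a mean of at least 1 FPKM and with protein-coding genes only. Leaving out any sample gave 0 called members. The log2 fold change of ESRP2 kept its sign in all 19 alternatives, with limma adjusted p between 0.0379 and 0.196, as did SNAI2 (0.0403 to 0.263), TWIST1 (0.0508 to 0.287), CDH1 (0.0887 to 0.439) and CDH2 (0.346 to 0.976, from -0.13 to -0.0062 without 1 sample). CDH3 took the other sign, at 0.0281, after the GC correction and with GC correction plus replicate block, and ranged from -0.0347 to 0.0233 over the fits without 1 sample, and ESRP1 from -0.0822 to 0.00417. Of all genes, 807 were called in the reported fit, 142 without a filter, 332 without the mean-variance trend, 1409 among protein-coding genes, 1403 with voom, 1549 with the GC correction and 98 with GC correction plus replicate block. Without 1 sample the count was 5 to 1712. The replicate block gave 0 called genes, and BCL9 stayed at -0.99 (limma adjusted p = 0.0656). Deviations of same-numbered samples had correlations of -0.147, -0.0884 and -0.0029. With 3 samples per group, such values cannot show whether the numbers pair the samples. Without 1 sample BCL9 ranged from -1.06 to -0.95 (limma adjusted p 0.0147 to 0.0700), above the threshold without NS control replicate 2, BCL9 KD replicate 2 or BCL9 KD replicate 3. The SNAI2 to SNAI1 ratio, with a log2 difference of 0.47 (exact permutation p = 0.2), was 0.79 with 0.1 FPKM added and 0.28 without NS control replicate 1, SNAI1 having at most 11 reads. The cause of these shifts was not tested. At these depths SNAI1, ZEB1 and ZEB2 had sums of 2 to 39 reads per group.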
